A study of Arabidopsis thaliana with 12 samples.

Results

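The 53 probes described here were the brightest probes with a single gene name in the water samples of an Arabidopsis thaliana study. Within each of the 6 water columns all 3439 probes were ranked by their deposited value, the ranks were averaged, and the 60 highest of the 692 probes annotated to exactly 1 gene were taken. PSAN, PSBW, PSBY, LHB1B2, CUTA, PRK and AT4G32060, all 7 of which were among the 60, were then left out. The 53 probes stood for 53 loci, all found in the TAIR10.1 gene table.

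An expression array was used to measure total RNA from Arabidopsis plants, wild type and of the Wassilevskija ecotype, in 2 groups. The proline group held 6 samples of plants given 100 mM proline for 48 h, an amount meant to make cellular proline toxic, and the water group held 6 samples whose titles name water and whose description speaks of no treatment. Tissue, age and growth conditions are absent from the labels. Nothing says whether the samples of a group are separate plants, so a p-value here reflects sample-to-sample spread that could be technical. Of markers for green tissue, 2 of 9 were measured under a single name, LHB1B2 and PSAN, and both stood among the 60 brightest probes. The rule names both among the loci to leave out, so their place was not independent of it. Of root markers 0 of 4 and of seed markers 0 of 3 were measured under a single name. The tissue was therefore not tested.

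Proline is an amino acid of proteins and also a solute that plants accumulate under drought and salt, and externally supplied proline can be harmful to the plant. In green tissue a large part of messenger RNA serves photosynthesis, which takes place in the chloroplast, while regulatory proteins are usually encoded by scarcer transcripts. The brightness of an array probe depends on the probe as well as on its transcript. The rank of a probe is therefore not a measure of abundance against other genes, and the 53 are called the brightest probes here, not the most abundant transcripts.

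Each locus was put in at most 1 class by background knowledge, since the sources used here give names and few descriptions. By these classes 7 of the 53 encode chloroplast proteins and 7 proteins of RNA handling or transcription. Loci of other classes, or without a role, may also encode chloroplast proteins. A further 8 act in signalling or protein control, 6 are metabolic enzymes and 3 belong to the cell wall or secretion. There was 1 protein of the mitochondrial inner membrane and 1 clock-regulated transcript, and 20 loci are given no role. At the lower edge of the choice, AT3G19810 and AT1G28150 were the last inside, with mean water ranks of 3024 and 3021, and chr31 and DRT101 the first outside, with 3013 and 3007.5 (a rank of 3439 is the brightest).

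All 636 values of the 53 probes were above 0. The proline columns were not used for the choice, and there the same probes stayed bright. When all 692 single-gene probes were ranked over the 6 proline columns, 43 of the 53 were again among the 60 highest and 10 were not. In single proline columns 41 to 44 of the 53 were among the 60 highest, against 41 to 50 in single water columns. AT4G31530 was first in proline and in water, AT3G09850 held place 2 in proline and place 3 in water, and AT2G27290 held place 4 in proline and place 2 in water. The farthest displacement downwards was that of AT3G54550, at place 110 in proline and place 56 in water. Because the choice favoured high water values, displacement downwards is in part built in.

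**Figure D1:**
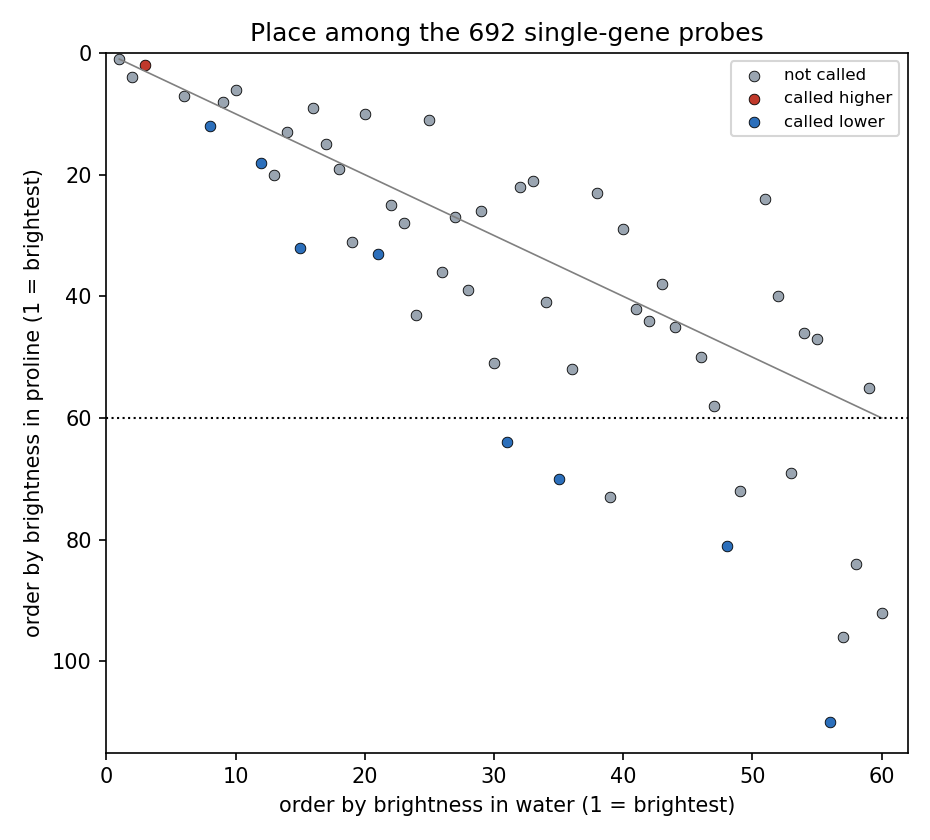
Place of each of the 53 probes among the 692 single-gene probes by mean rank, with the place in proline on the y axis and in water on the x axis (1 is the brightest, and the places of the 7 left-out loci stay empty). The line marks equal places and the dotted line place 60, below which 10 of the 53 lie; colours show the calls of the test on 12 samples.

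Like other bright probes, the members varied less within groups than the typical feature. On the quantile-normalized log2 scale, used for the tests unless another scaling is named, the SD within a group had a median of 0.398 over the members, 0.381 over the 337 other probes that had several genes or no listed gene and were at least as bright in water as the lowest member, and 0.62 over all 3045 tested features. The samples numbered 1 and 2, 3 and 4, and 5 and 6 resembled each other within each group and are called sets 1, 2 and 3. For the members, set partners differed by a median of 0.0878 on the log2 scale, against 0.109 over the other bright probes and 0.329 over all tested features. For the members called, the p from limma on 12 samples is followed by the p with the set as a random block.

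With proline, 1 of the 53 members rose and 8 fell in limma on 12 samples (Benjamini-Hochberg adjusted p under 0.05 over all features), and 44 were not called. Over all tested features 5.52% were called higher and 7.65% lower, 13.2% in all. Of the members 22 had an unadjusted p under 0.05, against 30.8% of all features. The water values that chose the members are also 1 side of each difference, so nothing is read from these counts. With the set as a random block 2 members remained, AT1G68660 and AT3G54930, both lower, where 1.54% of all features were called lower and 1.15% higher. These 2 calls were themselves lost with the random block when set 2 or set 3 was left out, and that of AT3G54930 also without set 1. With set means as samples (3 against 3) limma called none, the lowest adjusted p of a member was 0.302, and 6 members had an unadjusted p under 0.05, against 14.4% of all features, of which limma called none (0.0%). The median log2 change was -0.10 over the members and -0.16 over all tested features, with 22 members above 0 and 31 below. In bulk samples such as these, fewer cells of a type and less RNA per cell cannot be told apart.

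Among the 7 chloroplast members 1 fell, none rose and 6 were not called. The decrease was that of AT1G68660, an adaptor that delivers proteins to the Clp protease of the chloroplast stroma. Its normalized relative intensity had a low of 0.248, a median of 0.336 and a high of 0.411 in proline, against 0.537, 0.711 and 0.888 in water. Every proline sample lay below every water sample. The fit on 6 samples of each group gave a 2.16-fold decrease (log2 change -1.11, SE 0.22; limma's adjusted p = 0.01, or 0.0391 under the random block). The log2 change was -1.13 in set 1, -1.39 in set 2 and -0.81 in set 3. Without set 2 it was not called, and with arrays centred on their median limma gave an adjusted p of 0.0886. The alternatives spanned adjusted p-values of 0.000773 to 0.494.

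AT5G58330, the NADP-dependent malate dehydrogenase that exports reducing power from the chloroplast, had values of 0.451, 0.708 and 0.953 in proline (low, median and high), against 0.252, 0.383 and 0.654 in water. The groups overlapped. Its log2 change of 0.74 ± 0.30 did not pass (SE, adjusted p = 0.110 with limma), and the sets disagreed, at 1.28 and 1.39 in sets 1 and 2 and -0.44 in set 3. FZL, a dynamin-like GTPase of chloroplast membranes, had a change of 0.51 and AT3G47650, an assembly chaperone of Rubisco, one of 0.37, both above 0 in each set and neither called. PSB27, which helps to assemble photosystem II in the thylakoid lumen, had a change of -0.91 with set values of -1.87, -0.77 and -0.09.

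NdhS, the ferredoxin-binding subunit of the chloroplast NADH dehydrogenase-like complex, stood highest of the chloroplast members in the order of ranks. It had values of 2.67, 2.80 and 2.89 in proline and of 1.99, 3.12 and 3.99 in water, so the proline samples lay inside the range of the water samples. Its log2 change was -0.05 ± 0.21 (SE, adjusted p = 0.908 with limma) and turned above 0 with other scalings. AT1G74470, the geranylgeranyl reductase that makes the phytyl tail of chlorophyll, lay at 0.739, 0.937 and 0.967 in proline and at 0.506, 0.902 and 1.05 in water, with a change of 0.15. The changes of the 7 chloroplast members ran from -1.11 to 0.74 with a median of 0.15.

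Of the 7 members of RNA handling and transcription, 1 rose, none fell and 6 were not called. AT3G09850, a G-patch protein, a family that binds nucleic acids and helicases, was the single increase among the 53. It had values of 15.7, 21.1 and 23.6 in proline, against 7.07, 13.2 and 14.8 in water, with no overlap between the groups. The change was 1.83-fold (log2 change 0.87, SE 0.25; limma's adjusted p = 0.0357, or 0.122 under the random block). It was largest in set 2, at 1.33, and 0.61 and 0.67 in sets 1 and 3. The call was lost without any 1 of proline samples 1, 2, 4, 5 and 6 (adjusted p from limma 0.0543 to 0.0598) or of water samples 3 and 4 (0.0715 and 0.0748). It was also lost without set 1, set 2 or set 3 and with arrays centred on their median (adjusted p from limma 0.0594), and it passed in 12 of 29 alternatives. Over the alternatives the lowest adjusted p was 0.00444 and the highest 0.557.

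The class also held 3 pentatricopeptide repeat proteins, a family that edits, cuts and stabilizes organelle transcripts, and none was called. AT3G13150 had values of 0.654, 1.28 and 1.38 in proline and of 1.35, 1.96 and 3.0 in water, groups that overlapped only slightly. Its log2 change was -0.87 ± 0.27 (SE, adjusted p = 0.0529 with limma), and it was carried by set 3, at -1.92, beside -0.07 and -0.61 in sets 1 and 2. AT4G14050 had values of 0.190, 0.318 and 0.460 in proline and of 0.312, 0.774 and 0.942 in water, again overlapping. Its change was -0.98 ± 0.35 (adjusted p = 0.082 with limma), and AT4G14050 passed in 7 of 29 alternatives. Among these was the replicate number as a block (adjusted p = 0.0248 with limma), in a fit that called 5.68% of all features higher and 8.64% lower. AT3G26630, the third of the family, had a change of 0.18. The transcription factors AT4G00870, of the basic helix-loop-helix family, and AT1G44830, of the ethylene response factor family, had changes of -0.63 and -0.53, and the RNA-binding protein AT2G37510 one of -0.03.

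In signalling and protein control 2 of 8 members fell, none rose and 6 were not called. AT3G54930, a regulatory B' subunit that directs protein phosphatase 2A to its substrates, had values of 0.919, 1.09 and 1.47 in proline, against 1.90, 2.24 and 2.47 in water. The groups did not overlap, and within the proline group set 3 was the highest. The decrease was 1.96-fold (log2 change -0.97, SE 0.19; limma's adjusted p = 0.00942, or 0.0410 under the random block). The sets differed in size, at -1.39, -1.05 and -0.46 in sets 1, 2 and 3. It did not pass with arrays centred on their median (adjusted p = 0.147) or without set 2, and the alternatives gave adjusted p-values of 0.00157 to 0.484.

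AT2G40980, of the protein kinase superfamily, had values of 0.588, 0.657 and 1.11 in proline, against 1.23, 1.43 and 1.74 in water. The proline samples were all lower, but those of set 3 came close to the lowest water sample. The decrease was 1.95-fold (log2 change -0.96, SE 0.22; limma's adjusted p = 0.0157, or 0.0626 under the random block), and it was -0.28 in set 3 alone, beside -1.12 and -1.48 in sets 1 and 2. Without set 1 and without set 2 the call was lost. AT3G57120, another kinase of this superfamily, had a change of 0.45 and was not called.

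AT4G17070, a peptidyl-prolyl isomerase, an enzyme class that turns the bonds before proline residues in proteins, was among the brightest probes of both groups. It had values of 4.29, 5.37 and 10.8 in proline and of 1.03, 4.01 and 6.53 in water, which overlapped widely. Its log2 change was 0.78 ± 0.41 (SE, adjusted p = 0.212 with limma), with 0.09 in set 1 and 1.39 and 0.87 in sets 2 and 3. The partners of set 2 lay far apart, at 4.29 and 10.8 in proline and at 1.03 and 6.53 in water. XERICO, a RING-finger protein that promotes the accumulation of the stress hormone abscisic acid, had a change of -0.18 and lay at 0.749, 1.31 and 1.64 in proline and at 0.910, 1.42 and 1.78 in water. The calmodulin-like CML30, the F-box protein AT4G39760 and the DnaJ-domain protein AT1G21660 had changes of -0.20, 0.45 and -0.41.

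None of the 6 metabolic enzymes was called, and their log2 changes lay between -0.41 and 0.53 with a median of -0.08. AT4G31530, a protein with the nucleotide-binding fold of dehydrogenases, was the brightest single-gene probe. It had values of 13.2, 25.0 and 43.9 in proline and of 16.2, 18.8 and 21.8 in water, so the proline samples reached both above and below the water samples. Its change was 0.40 ± 0.32 (SE, adjusted p = 0.425 with limma), and 0.95 with no normalization between arrays (adjusted p = 0.301), the sets standing at 0.35, 1.14 and -0.30.

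AT5G52810, an enzyme of the ornithine cyclodeaminase family that takes part in making the immune signal pipecolic acid, a ring homologue of proline, had values of 0.506, 0.566 and 0.630 in proline and of 0.260, 0.395 and 0.680 in water. The proline samples were close together inside the wider water range, and the change of 0.53 did not pass. The others were LpxA, which starts the making of a lipid A-like molecule, at -0.41, AT4G29890, a choline monooxygenase-like protein, at -0.35, and the cyanate-degrading CYN at 0.14. AT1G17160, a ribokinase, lay at 0.745, 0.893 and 1.09 in proline and at 0.941, 1.17 and 1.30 in water, overlapping, with a change of -0.31.

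Of the 3 members of the cell wall and secretion none was called. AT4G31470, a secreted protein of the family of pathogenesis-related protein 1, had values of 0.845, 1.52 and 2.39 in proline and of 1.13, 1.90 and 2.63 in water, which overlapped over most of their range. Its log2 change was -0.25 ± 0.33 (SE, adjusted p = 0.639 with limma). AT4G19900, of a glycosyltransferase family, had values of 1.38, 1.5 and 2.58 in proline and of 0.633, 0.795 and 2.93 in water. In both groups the samples of set 1 were the highest, water held both the lowest and the highest of the 12 values, and the change was 0.58 ± 0.42 (adjusted p = 0.373). AT3G57630, a glycosyltransferase that adds arabinose to cell wall extensins, had a change of 0.23 with set values from 1.04 in set 1 to -0.77 in set 3.

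AT4G39690, which shapes the folds of the mitochondrial inner membrane, fell with proline. It had values of 0.676, 0.714 and 0.825 in proline, against 0.986, 1.11 and 1.32 in water, and the groups did not overlap. The decrease was 1.57-fold (log2 change -0.65, SE 0.16; limma's adjusted p = 0.0230, or 0.0978 under the random block). It was the most even of the called members across the sets, at -0.63, -0.60 and -0.72, and its SD within groups, 0.140, was the smallest of all 53. With arrays centred on their median the change was -0.32 (adjusted p = 0.442), and without water sample 5 or without set 2 or 3 it was not called.

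CCL, an unstable transcript whose decay follows the circadian clock, had values of 4.57, 5.81 and 6.15 in proline and of 2.24, 4.25 and 5.80 in water, which overlapped. Its log2 change of 0.49 ± 0.27 did not pass (SE, adjusted p = 0.231 with limma) and was -0.10 in set 2, beside 0.48 and 1.09 in sets 1 and 3. The time of harvest is not in the labels.

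Of the 20 loci given no role 4 fell, none rose and 16 were not called. AT1G62250 had values of 1.04, 1.5 and 1.95 in proline, against 1.98, 3.53 and 4.04 in water. The groups did not overlap, although the water samples of set 1 came close to the highest proline sample, which was of set 3. The decrease was 2.15-fold (log2 change -1.10, SE 0.26; limma's adjusted p = 0.0179, or 0.0618 under the random block).

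AT4G27390 had values of 0.244, 0.384 and 0.443 in proline, against 0.437, 0.873 and 1.05 in water. The lowest water sample, of set 1, lay inside the proline range. It fell 2.17-fold, the largest fitted decrease of the 53 (log2 change -1.12, SE 0.27; limma's adjusted p = 0.0192, or 0.0816 under the random block). AT3G54550 had values of 0.134, 0.192 and 0.254 in proline, against 0.228, 0.438 and 0.555 in water, again with a sample of set 1 of water in the overlap. Its decrease was 2.07-fold (log2 change -1.05, SE 0.26; limma's adjusted p = 0.0229, or 0.0902 under the random block). The call was lost without water sample 3 or 4. In AT1G62250, AT4G27390 and AT3G54550 set 2 gave the lowest change, at -1.42, -1.46 and -1.42, and without set 2 or set 3 none of the 3 was called.

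The fourth, AT4G13680, had values of 0.189, 0.256 and 0.376 in proline, against 0.355, 0.458 and 0.525 in water, which overlapped at the edge. The decrease was 1.71-fold (log2 change -0.78, SE 0.22; limma's adjusted p = 0.0380, or 0.135 under the random block). It was the least stable of the 9 calls, passing in 9 of 29 alternatives, and was lost without any 1 of proline samples 1 to 4 and of water samples 1, 2, 3, 5 and 6.

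Other members without a role had large fitted changes that did not pass. AT3G06870 had the largest positive change of the 53, with values of 0.731, 0.941 and 1.05 in proline and of 0.208, 0.428 and 0.950 in water. The water samples of set 1 overlapped with proline, so that the change was 0.13 in set 1 and 1.68 and 1.33 in sets 2 and 3 (1.05 ± 0.38 in all, SE, adjusted p = 0.0829 with limma). AT1G51350 had values of 0.504, 1.24 and 1.73 in proline and of 0.499, 0.603 and 0.934 in water, with a change of 0.71 ± 0.34 (adjusted p = 0.175) that was -0.14 in set 3. AT1G03810 had values of 0.502, 0.553 and 0.826 in proline and of 0.527, 1.66 and 1.85 in water. The overlap came from the water samples of set 1, where its change was -0.01, and the overall change was -1.02 ± 0.36 (adjusted p = 0.0758). AT2G27290, the second brightest probe in water, lay at 7.27, 11.8 and 14.2 in proline and at 8.13, 12.4 and 14.8 in water, with a change of -0.09 ± 0.25 (adjusted p = 0.833).

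**Figure D2:**
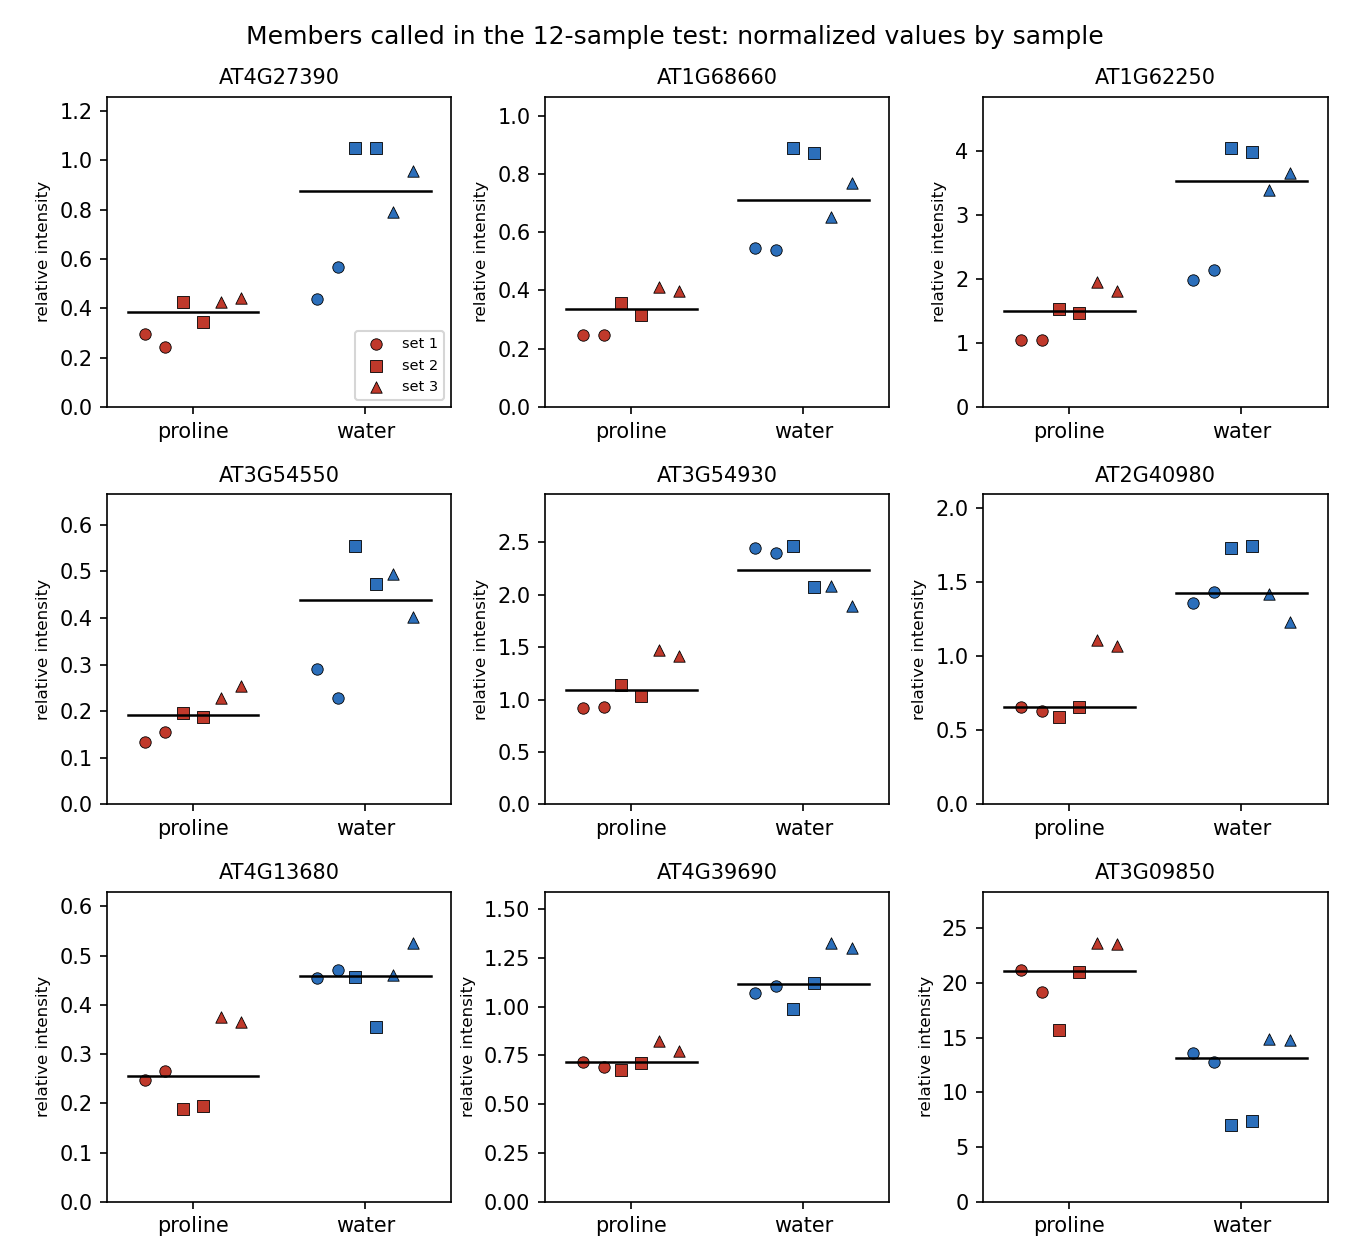
Normalized relative intensity (linear axis from 0) of the 9 members called in limma on 12 samples, in the proline samples on the left and the water samples on the right of each panel, with symbols for sets 1, 2 and 3 and a bar for the median of the 6 samples. The 2 partners of a set mostly lie close together, and 6 of the 9 panels show no overlap between groups.

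Across the 53, the groups did not overlap for 1 member that was higher with proline, AT3G09850, and for 5 that were lower, AT1G62250, AT3G54930, AT2G40980, AT4G39690 and AT1G68660. Of the 2337 tested features measured above 0 on every array, 4.02% were higher and 6.25% lower without overlap. The change had 1 direction in all 3 sets for 31 members, 9 higher (17.0%) and 22 lower (41.5%), against 17.4% and 28.6% of all features with a value in each set and group. The other 22 members had sets on both sides of 0. Set 2 gave the largest change for 26 of the 53 and for 7 of the 9 called members. Without set 2 limma called no member, while 0.635% of all features were called higher and 0.334% lower. In that fit 15 members had an unadjusted p under 0.05, against 601 of all 2993 features tested.

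**Figure D3:**
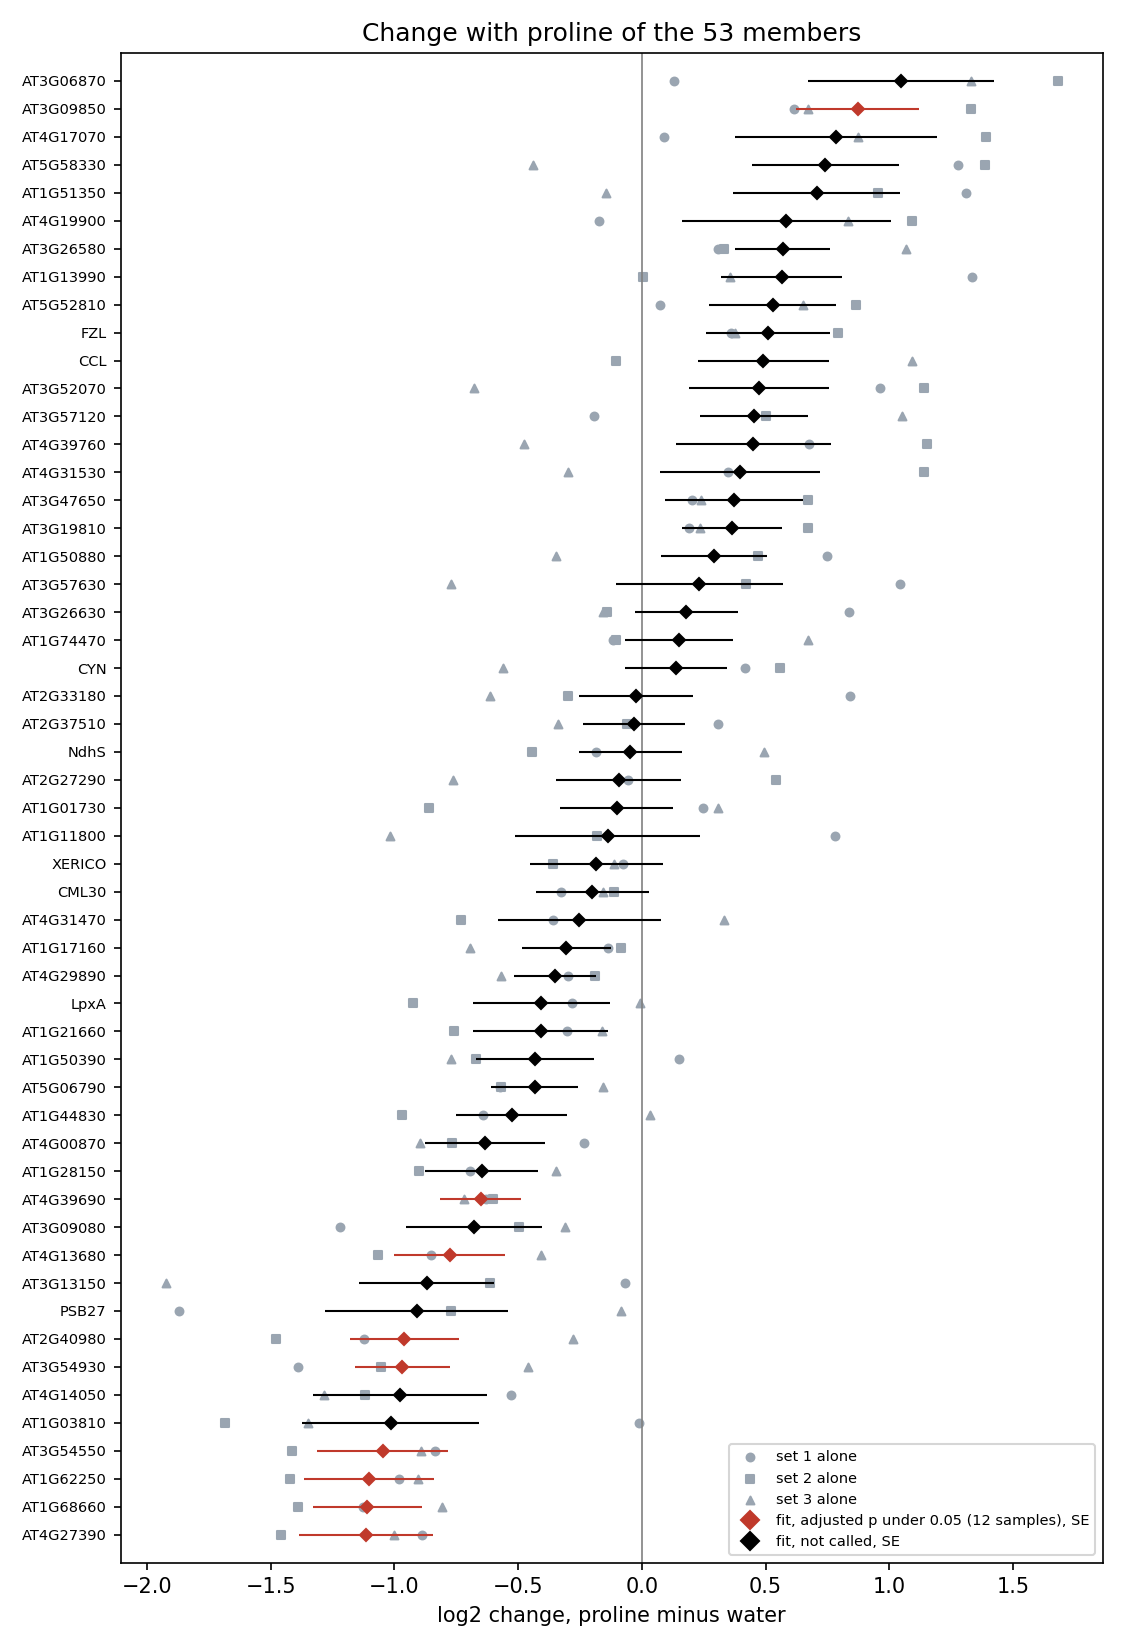
Log2 change, proline minus water, of the 53 members on the x axis, 1 row each, with diamonds and bars for the fitted change and its SE (red where the adjusted p was under 0.05 in limma on 12 samples) and grey symbols for the change in each set alone. The 9 called members lie to 1 side of 0 in all 3 sets, and 22 of the 53 members have sets on both sides.

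Which bright probes counted as changed depended on how the arrays were scaled. The median of each array was taken over its deposited values above 0. The median of the members lay 3.46 to 4.10 log2 units above that of its own array in proline (median of the 6 samples 3.86) and 3.10 to 4.01 in water (3.55). In set 1 the values were 3.46 and 3.46 in proline, against 3.30 and 3.10 in water. In set 2 they were 3.91 and 3.86 in proline, against 3.57 and 3.53 in water, and in set 3 they were 3.85 and 4.10 in proline, against 4.01 and 3.89 in water. The members were farther from the middle in proline in sets 1 and 2, and not in set 3. Over all probes, between 352 and 424 values per proline column were 0, and between 153 and 235 per water column. These zeros were left out of the array medians, more of them in proline, and their part in the difference was not tested. The members held 9.35% to 12.9% of the summed deposited intensity in proline columns and 7.88% to 9.74% in water columns. This share was higher in proline in sets 1 and 2 only. In set 3 it was 9.35% and 9.55% in proline, against 9.67% and 9.74% in water. A sum gives the brightest probes the most weight.

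Quantile normalization gives every array the same distribution of values, whereas centring on the median shifts each array as a whole. Whether this accounts for the different calls was not tested. With arrays centred on their median 6 members rose, none fell and the median log2 change was 0.17, against -0.10 after quantile normalization. With median centring 24 members had an unadjusted p under 0.05 in limma, against 877 of all 3045 features. Over all features 7.03% were called higher and 4.2% lower with median centring. These 6 were CCL, FZL, AT1G13990, AT3G06870, AT3G26580 and AT3G57120, with adjusted p from limma between 0.0235 and 0.0451. None of them was among the 9 called after quantile normalization, so 15 members were called in 1 scaling or the other and 0 in both. Increases made up 11.1% of the members' 9 calls after quantile normalization, 22.2% of 9 with cyclic loess and with zeros kept, and 100.0% of 6 with median centring. The share also rose over all features. There increases made up 41.9% of the calls after quantile normalization, 54.1% with cyclic loess, 54.2% with zeros kept and 62.6% with median centring. Of the 53 members 10 had the other sign with median centring, among them NdhS, AT2G27290 and AT4G31470, but none of the 9 called members changed sign under any of the 5 scalings.

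Cyclic loess called 2 members higher and 7 lower (7.36% and 6.24% of all features), and zeros kept also 2 and 7 (7.24% and 6.11%). Each shared 8 of the 9 calls made after quantile normalization, in the same direction, and added AT3G26580. No normalization called 0 and 0 (0.558% and 0.0985%). There 13 members had an unadjusted p under 0.05 in limma, against 561 of all 3045 features. The set as a fixed block called 4 and 15 (9.85% and 15.9%), trend and robust variances 3 and 12 (7.19% and 10.5%), the samples without set 1 3 and 11 (7.33% and 12.6%) and those without set 3 2 and 4 (2.67% and 4.23%).

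The middle of all tested features also differed between some of the scalings. The median log2 change of all tested features was -0.16 with quantile normalization and with median centring, -0.09 with cyclic loess, -0.10 with no normalization and -0.02 with zeros kept. Relative to it, the members' median lay 0.06 higher after quantile normalization, 0.07 higher with cyclic loess, 0.32 higher with median centring and with no normalization, and at -0.01 with zeros kept. How the deposited values were scaled is not given in the sources used here, so the scalings stand side by side.

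**Figure D4:**
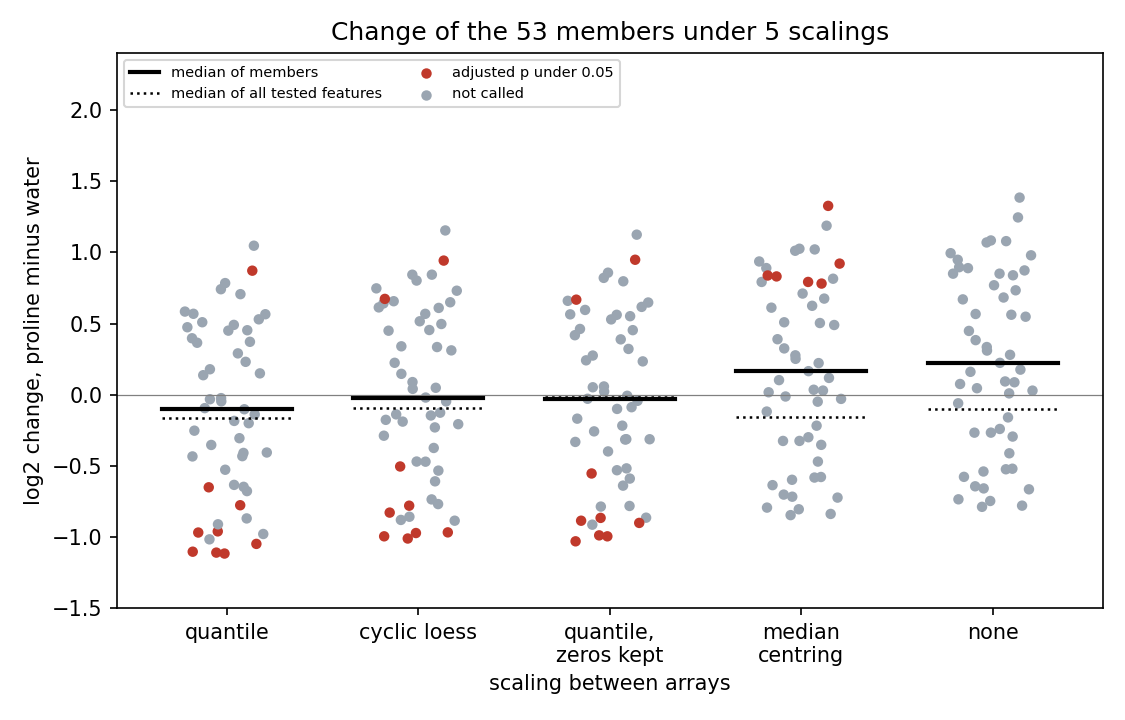
Log2 change, proline minus water, of the 53 members (points, spread sideways for legibility) under 5 ways of scaling between arrays, red where the adjusted p from limma was under 0.05. Solid lines are the medians of the members, between -0.10 and 0.22, and dotted lines those of all tested features, between -0.16 and -0.02; no member is red with both quantile normalization and median centring.

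The columns used for ranking also changed the counts. Chosen by their mean rank in the proline columns, 54 probes remained after the same loci were left out, 8 were called higher and 4 lower, and the median log2 change was 0.37. Chosen on all 12 columns, 54 probes had 4 higher, 6 lower and a median of 0.14. Over all tested features 5.52% were called higher and 7.65% lower, with a median of -0.16. A choice on the proline columns favours high proline values, so increases are in part built in there, and nothing is read from these counts. Of the 53 members 43 were in the proline choice, where they made up 43 of 54, and 48 were in the choice on all 12 columns, 48 of 54. Of the 9 called members 5 and 7 were in these choices.

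The 337 other bright probes were described in the same way. Of these 6.82% were called higher and 20.5% lower in limma on 12 samples, with a median log2 change of -0.28, while 1.89% of the members were higher and 15.1% lower. With arrays centred on their median the other bright probes had 11.6% higher, 2.37% lower and a median of 0.04. More calls were higher than lower with median centring in bright probes with and without a single gene name.

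By position, 6 of the 53 members had another member within 10 protein-coding genes on the chromosome. These were the pairs AT4G31530 and AT4G31470, AT4G39760 and AT4G39690, and AT3G26630 and AT3G26580. Their log2 changes had opposite signs in the first and second pairs, at 0.40 and -0.25 and at 0.45 and -0.65, and the same sign in the third, at 0.18 and 0.57.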

How the data were processed

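The authors deposited 1 table with 12 columns of relative intensity for 3439 probes, linear by the look of the numbers. For its scanner, dyes, background correction and scaling the sources used here give nothing. Genes were assigned to probes through the platform's annotation, which may be dated, and updated through gene identifiers to TAIR10.1 names; the identifiers of 690 of 692 probes matched. Probes with several genes were left unnamed.

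Values of 0 were treated as missing, the others log2-transformed and quantile normalized, and probes of 1 locus averaged. Features with at least 4 values per group were tested with limma 3.58.1 (R 4.3.3, statmod 1.5.0). Benjamini-Hochberg adjustment ran over all 3045 features, with a call at 0.05. The fit was also run on simulated data in which the samples varied independently. That run cannot show how the resemblance of set partners affects false calls. Normalized values in the text are 2 to the power of the normalized log2 value. Figures were drawn with matplotlib 3.10.9. The number of arrays limits the precision.

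Samples of the same number deviated together from their group means (correlation 0.134 to 0.256 over features). The numbers therefore paired proline with water samples in the replicate block, the fixed block of sets and the changes by set. The test on 12 samples and the random block, whose blocks were sets within 1 group, did not use this pairing. The correlation of set partners in the random block was 0.593. The members, sets, roles and lists were chosen with earlier results of these data known. Those described in full were the 10 highest in water rank, the called, and the 6 largest changes each way, and the 2 highest of each role class were given levels. Probe sequences were not used here.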

Additional observations from a re-analysis of the deposited data

Results flagged for a closer look

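Dixon's gap test was applied to the 6 values of each group for the 22 members described in full, 44 groups in all. It picked out 2 (values as normalized log2 intensity). Chance alone would pick about 1 in 20 groups if the 6 values were independent. Set partners resembled each other, so that rate may not hold here. AT4G17070 lay at 3.43 in proline sample 4, and the nearest proline sample was at 2.52. AT4G13680 lay at -1.49 in water sample 4, and the nearest water sample was at -1.14.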

How the results depend on the processing

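The test on 12 samples called 1 member higher and 8 lower. The members called higher numbered 6 with median centring, 2 with cyclic loess, 2 with zeros kept, 2 with values in all 12 samples, 3 with trend and robust, 4 with a fixed block of sets, and 0 with no normalization, with the random block and with set means. Those called lower numbered 0 with median centring, 2 with the random block, 15 with the fixed block and 0 with set means. With no normalization 0 were called lower, and 13 members had an unadjusted p under 0.05 in limma, against 561 of all 3045 features. Without sets 1, 2 and 3 in turn 3, 0 and 2 were called higher and 11, 0 and 4 lower, and the same with the random block, an alternative chosen after seeing the data, gave 1, 0 and 0 higher and 6, 0 and 0 lower. Leaving out 1 replicate gave 0 to 2 higher and 6 to 12 lower. Shares over all features are not given for these fits, for values in all 12 samples or for the random block without a set. Nothing is read from those counts. With the replicate block 1 was higher and 9 lower, which added AT4G14050. Ranking on the proline columns gave 8 higher, 4 lower and a median of 0.37, ranking on all 12 columns 4 higher and a median of 0.14, and leaving the loci out first 2 higher. The median was 0.17 with median centring, 0.22 with no normalization and -0.30 in set 3 alone. The cause of these differences was not tested.

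Of the 22 members described in full, 3 changed sign in some settings, none of them called in any. NdhS had 0.25 with median centring, 0.041 with cyclic loess, 0.31 with no normalization, 0.022 with zeros kept, -0.15 to 0.047 without 1 replicate (above 0 without water replicate 3 or 4), and 0.024 and 0.15 without sets 1 and 2, random block included. AT2G27290 had 0.10 with median centring, 0.16 with no normalization, -0.19 to 0.014 without 1 replicate (above 0 without proline replicate 5 or 6), and 0.24 without set 3, random block included. AT4G31470 had 0.017 with median centring and 0.075 with no normalization. Signal over background could not be computed.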
